A study of Mus musculus with 30 samples.

Results

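Lysosomes degrade the glycogen that reaches them with acid alpha-glucosidase, the product of Gaa, and its loss causes Pompe disease. Glycogen then collects in lysosomes of many cell types, with the best known damage in skeletal muscle fibres and in motor neurons. The effect of a Gaa knockout (KO) was compared here between quadriceps muscle and whole spinal cord of the same male mice, untreated and 4 months old, on the B6;129 background. The quadriceps and the cord of 3 Gaa KO B6;129 mice (animals 1, 2 and 3) and of 3 Gaa WT B6;129 mice (animals 4, 5 and 6) each gave a polyA RNA library, so the comparison rests on 12 libraries of 6 animals. The labels name the genotype as Gaa KO without an allele. The quantity reported is the tissue difference, which is the KO effect in quadriceps (log2 of KO over WT) minus the KO effect in cord. It was measured for genes that reached a signal of 1 in 3 or more libraries of quadriceps and also of cord. The libraries were counted over all 30 of the series, so a gene could pass on libraries outside the 12. In all, 13187 of the 17420 genes in the table passed. Another 18 libraries of mice on a mixed B6;129;DBA2/J background with an altered Ltbp4 allele shared the estimate of spread and the filter. Some of them came from treated KO mice (animals 21, 22 and 24). The other KO and WT mice of that background serve at the end as a second background.

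The quadriceps libraries held 20500000 to 37100000 reads and the cord libraries 19200000 to 34200000 reads, and 1 read was worth a signal of 0.0329 to 0.072 in quadriceps and of 0.0179 to 0.0314 in cord. Signal here means the authors' count scaled to the library. Fibre genes marked the quadriceps: the summed signal of 10 muscle fibre markers was 188000 to 202000 in KO and 231000 to 252000 in WT quadriceps. In cord the same sum was 149 to 285 in KO and 121 to 655 in WT, highest in WT animal 5, so traces of muscle RNA were present in the cord libraries. Summed over 10 neuron markers, the signal was 4610 to 5320 in KO and 5100 to 5460 in WT cord, against 1.83 to 9.41 in KO and 1.44 to 3.34 in WT quadriceps. In muscle the mitochondrially encoded share of the signal was 13.2 to 16.2% in KO and 17.3 to 21.1% in WT, while in cord it was 7.25 to 7.7% in KO and 6.99 to 7.37% in WT.

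Gaa itself was low in both tissues of the KO mice. Its signal was 16.2, 15.4 and 15.7 in KO and 308, 258 and 259 in WT quadriceps. In cord it was 17.7, 17.0 and 15.7 in KO and 218, 221 and 236 in WT. No KO library overlapped with a WT library in either tissue. The KO effect was -4.07 in quadriceps and -3.70 in cord on the log2 scale, a tissue difference of -0.37 ± 0.18 (SE) with a 95% interval of -0.74 to 0.0025 and an adjusted p of 0.139. With the spread estimated from the 12 libraries alone the same difference had an adjusted p of 0.0151.

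The knockout changed far more genes in muscle than in cord, and for many genes the effect differed between the tissues. At an adjusted p under 0.05 (limma, Benjamini-Hochberg over all 13187 genes), 5975 genes (45.3%) changed in quadriceps, 2810 of them higher and 3165 lower. In cord 85 genes (0.645%) changed, 78 higher and 7 lower. The tissue difference itself passed for 3346 genes (25.4%), 1615 of them positive (12.2%) and 1731 negative (13.1%), and 801 of the 3346 exceeded 2-fold. The quadriceps effect was the larger in size for 3288 of them and the cord effect for 58. The median absolute effect over all genes was 0.286 in quadriceps and 0.0788 in cord, and the median SE of the tissue difference was 0.181. Of the genes that changed in quadriceps, 2696 did not pass for the tissue difference, so an effect called in muscle and not in cord was not by itself an effect that differed. Across all genes the effects in the 2 tissues had a Pearson r of 0.346, a description over genes that share the same animals.

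Each animal gave both tissues, so the tissue difference can also be read within an animal. The within-animal log2 ratios of quadriceps over cord of the 3 KO mice did not overlap with those of the 3 WT mice for 6290 genes (47.7%). Within a tissue, libraries of the 2 genotypes were apart for 7135 genes (54.1%) in quadriceps and for 3165 genes (24%) in cord. They were apart in both tissues and in opposite directions, with a called tissue difference, for 444 genes (3.37%). The 2 scales do not always give the same direction: of the 3346 genes, 50 had a difference of the opposite sign when it was taken in units of signal, 24 of them positive and 26 negative on the log2 scale. In bulk tissue, fewer cells of a type and less RNA per cell cannot be told apart for any gene below.

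**Figure D1:**
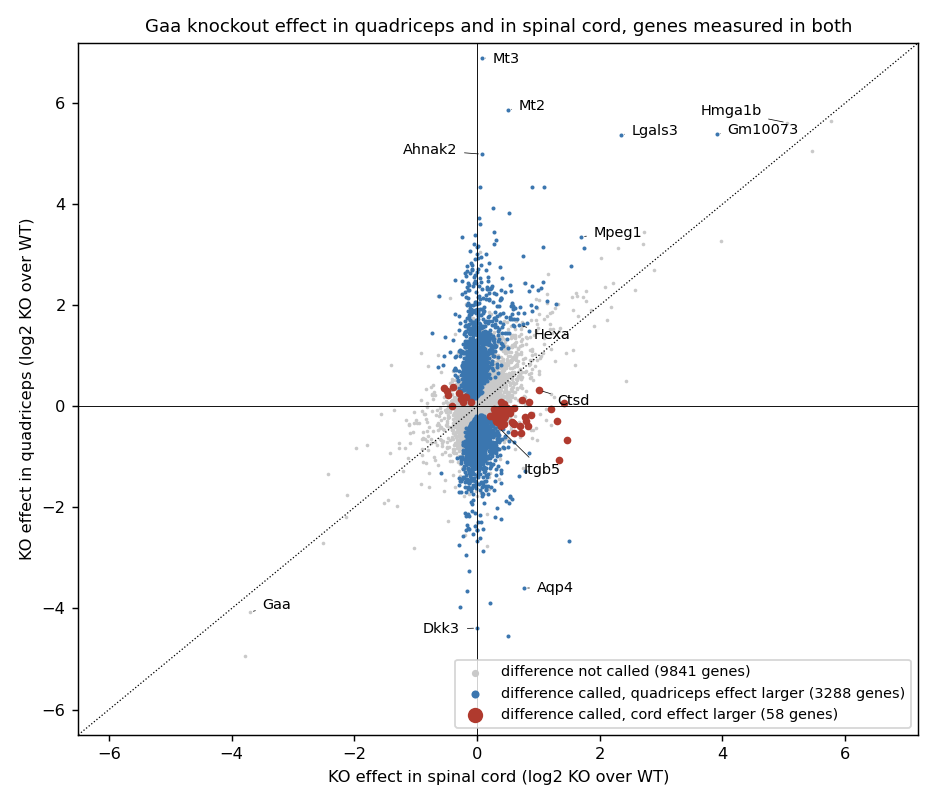
Each point is 1 of the 13187 genes, at its KO effect in cord (x axis, log2 KO over WT, fitted with a pseudocount of 0.5) and in quadriceps (y axis). Blue marks the 3288 genes whose tissue difference passed with the larger effect in quadriceps, red the 58 with the larger effect in cord, and the dotted line is equality: the blue genes lie along the vertical axis, with Mt3 at the top and Dkk3 among the lowest, whereas Gaa lies near the line.

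The metallothioneins Mt3 and Mt2 had the largest positive differences of the called genes, and Mt1 was also positive. Metallothioneins are small cysteine-rich proteins that bind zinc and copper. Mt1 and Mt2 are made in most tissues, and Mt3 is known mainly from brain. Mt3 had a signal of 195, 241 and 219.8 in KO and 1.33, 1.24 and 1.42 in WT quadriceps. In cord it had 190, 177 and 167 in KO and 158, 169 and 179 in WT. KO muscle lay far above WT muscle, which held almost none, while the cord libraries of the genotypes overlapped, and the tissue difference was 6.82 ± 0.39 (SE, adjusted p = 4.32e-11). Mt2 had 217, 256 and 269 in KO and 4.79, 4.06 and 2.63 in WT quadriceps, against 88.0, 87.1 and 87.7 in KO and 50.5, 66.3 and 69.4 in WT cord. Its tissue difference was 5.36 ± 0.82. Mt1 had 159, 154 and 175 in KO and 8.03, 12.8 and 13.0 in WT quadriceps, and its tissue difference was 3.30 ± 0.70. Of the 10 genes of the metallothionein and zinc transport list, these 3 were positive and the zinc exporter Slc30a2 was negative (-1.08, adjusted p = 0.033, above 0.05 in 8 of the 12 fits that leave out a library and 0.129 with edgeR). Mtf1, the zinc-sensing factor that drives metallothionein genes, had effects of -0.059 in quadriceps and -0.096 in cord, neither called.

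The 3 genes lie close together on mouse chromosome 8, and their promoters are shown because they moved together. The sequences run from 250 bases before to 50 after the annotated start (RefSeq, build GRCm38.p6, plus strand), at chr8:94178839-94179138 for Mt1, chr8:94172368-94172667 for Mt2 and chr8:94152357-94152656 for Mt3. Capitals mark TGCNCNC, searched on both strands. It is a looser word than TGCRCNC (R is A or G), the core of the metal response element, so some marked sites do not match that core.
Mt1: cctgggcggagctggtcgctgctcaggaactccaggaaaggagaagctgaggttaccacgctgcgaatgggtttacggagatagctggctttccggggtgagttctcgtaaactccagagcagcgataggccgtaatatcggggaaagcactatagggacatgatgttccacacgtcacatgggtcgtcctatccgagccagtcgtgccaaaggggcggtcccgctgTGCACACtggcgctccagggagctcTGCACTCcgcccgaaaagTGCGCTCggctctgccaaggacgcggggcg
Mt2: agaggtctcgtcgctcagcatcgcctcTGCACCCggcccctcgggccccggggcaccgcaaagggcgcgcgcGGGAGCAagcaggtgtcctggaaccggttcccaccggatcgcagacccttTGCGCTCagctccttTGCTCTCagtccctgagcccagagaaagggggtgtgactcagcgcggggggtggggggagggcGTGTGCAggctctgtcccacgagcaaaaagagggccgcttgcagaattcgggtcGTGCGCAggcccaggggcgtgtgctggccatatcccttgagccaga
Mt3: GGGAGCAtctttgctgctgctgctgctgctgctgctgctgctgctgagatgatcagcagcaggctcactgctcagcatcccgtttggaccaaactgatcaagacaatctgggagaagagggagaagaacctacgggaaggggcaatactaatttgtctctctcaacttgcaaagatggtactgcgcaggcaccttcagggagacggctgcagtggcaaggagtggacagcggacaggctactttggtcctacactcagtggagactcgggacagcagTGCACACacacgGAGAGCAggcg
The looser word occurred 3 times in the Mt1 promoter, 6 times in that of Mt2 (3 on each strand) and 3 times in that of Mt3 (1 on the plus and 2 on the minus strand). It is a common word: 51.0% of 32851 mouse promoters and 60.2% of 12563 promoters of the genes measured here held it, and 9 of 11 promoters of the metallothionein and zinc transport list did.

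Where the signal reached 5 in each tissue and the animals were apart, the other 7 of the 10 largest positive differences also came from genes that rose in muscle and were not called in cord. Ahnak2, a very large scaffold protein of the muscle membrane, had a signal of 220.0, 258 and 239 in KO and 6.81, 7.69 and 6.58 in WT quadriceps, against 63.8, 67.7 and 75.3 in KO and 68.9, 67.7 and 58.6 in WT cord. Its tissue difference was 4.91 ± 0.22 (adjusted p = 3.22e-13). Serpinb1a, an inhibitor of neutrophil proteases, differed by 4.30 ± 0.31, with a signal of 84.9 to 120.2 in KO and 2.70 to 5.85 in WT muscle. The early growth response factor Egr1 differed by 3.27 ± 0.56, with 60.8, 82.9 and 78.9 in KO and 14.6, 6.25 and 4.49 in WT quadriceps. The lipid-binding protein Osbpl3, the Nogo receptor partner Lingo1, the pterin dehydratase Pcbd1 and the sphingomyelin synthase Sgms2 differed by 3.15 to 3.17. Lingo1 is a neuronal gene with 29.2, 28.8 and 27.9 in KO and 31.1, 30.7 and 30.7 in WT cord, and KO muscle reached 5.30, 8.17 and 7.02 against 0.540, 0.432 and 0.163 in WT muscle. In all of these genes the KO and WT quadriceps libraries were apart, as for 54.1% of all genes. They were chosen for large differences with animals apart, so this adds no support. The cord effects lay between -0.11 and 0.27 and were not called.

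The 10 largest negative differences, among genes chosen in the same way, were of genes that fell in muscle and were not called in cord. Dkk3, a secreted protein of the Dickkopf family, had a signal of 1.29, 1.81 and 1.43 in KO and 35.3, 35.9 and 55.5 in WT quadriceps. In cord it had 76.3, 73.3 and 73.6 in KO and 73.9, 75.9 and 72.9 in WT, a tissue difference of -4.39 ± 0.38 (adjusted p = 1.65e-08). The cord libraries of the 2 genotypes overlapped. Aqp4, the water channel of fast muscle fibres and of astrocyte end-feet, had 3.82, 3.33 and 4.06 in KO and 46.6, 60.5 and 45.9 in WT quadriceps. In cord it had 390, 393 and 420 in KO and 221, 248 and 237 in WT, so that KO libraries lay below WT in muscle and above WT in cord without overlap. Over all genes 3.37% were apart in opposite directions with a called tissue difference. The tissue difference of Aqp4 was -4.36 ± 0.34, its effect -3.60 in quadriceps and 0.77 in cord, the last with an adjusted p of 0.273 and of 0.00333 in a fit of the cord libraries on their own.

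Of the other 8, Gdap1, a mitochondrial outer membrane protein mutated in an inherited neuropathy, had 1.85, 3.38 and 3.34 in KO and 42.0, 47.2 and 34.5 in WT quadriceps, a tissue difference of -3.50 ± 0.32. The glutamate receptor partner Neto2 differed by -3.12, the BMP-responsive membrane protein Tmem100 by -2.95, the cadherin Cdh4 by -2.46 and the receptor subunit Cacng7 by -2.44. Amd1, the enzyme that supplies decarboxylated S-adenosylmethionine for polyamine synthesis, had 448, 396 and 332 in KO and 2395, 2692 and 2370 in WT quadriceps, against 96.4, 93.8 and 96.9 in KO and 95.4, 94.7 and 98.2 in WT cord. The tissue difference of Amd1 was -2.67 ± 0.18. A near-identical copy, Amd2, can share its reads. The long noncoding RNA Gm26723 differed by -4.10 ± 0.85 on a low and uneven signal in KO muscle, where 2 of 3 libraries had no read. Kcnab1, a potassium channel beta subunit, differed by -2.43 on the log2 scale and by 8.46 in units of signal, the opposite sign, with 68.8, 64.5 and 73.3 in KO against 87.6, 90.3 and 77.0 in WT cord and 0.720, 0.632 and 1.14 in KO against 7.17, 6.71 and 11.5 in WT quadriceps.

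**Figure D2:**
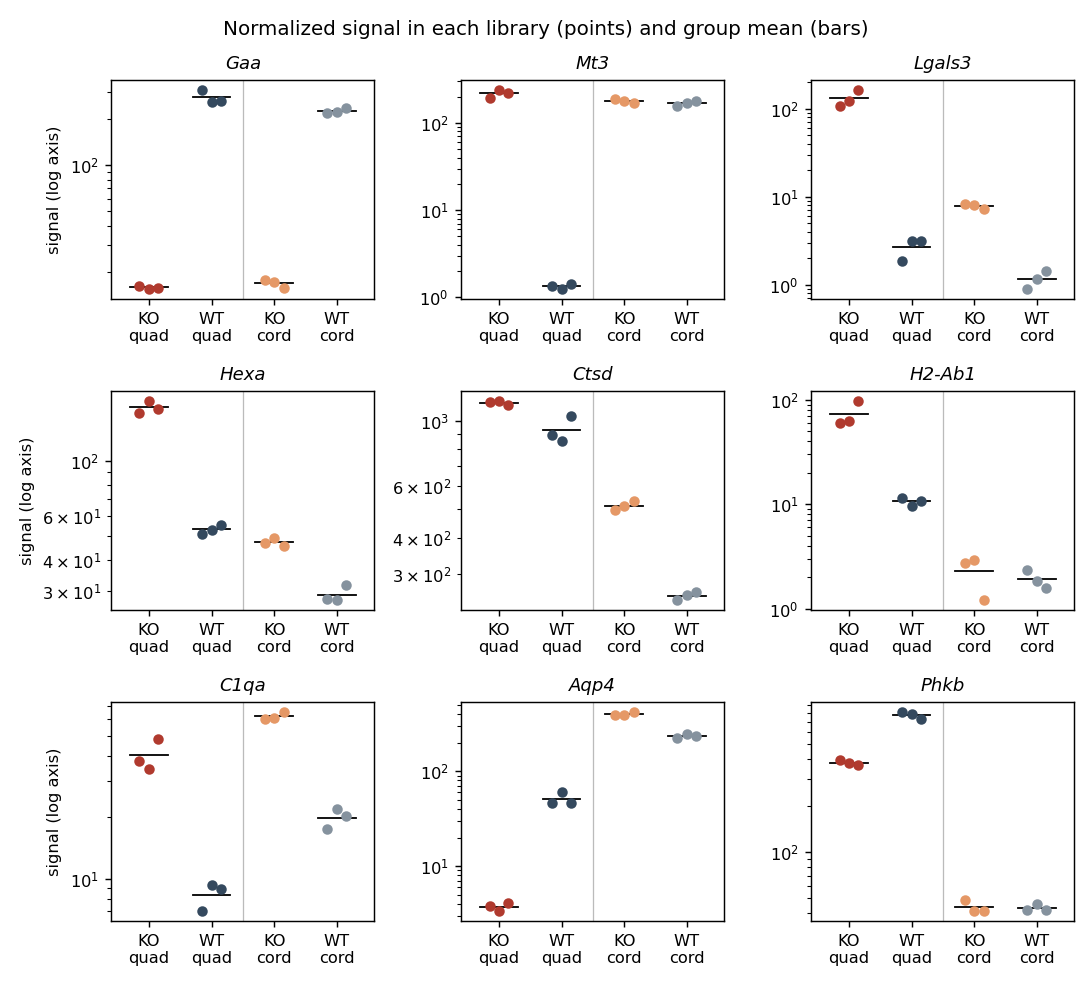
Signal of 9 genes in each library (points, log axis) with the group mean (bars), with quadriceps left and cord right and KO left of WT in each. Mt3, H2-Ab1 and Phkb separate KO from WT in quadriceps only in these plots, Aqp4 separates them in opposite directions, and Gaa, Lgals3, Hexa, Ctsd and C1qa separate them the same way in both tissues.

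A small set of genes responded in both tissues. Of the 85 genes that changed in cord, 68 changed in quadriceps in the same direction, 63 higher and 5 lower, 2 changed in the opposite direction, and 15 were not called in quadriceps. The median effect of the 68 was 1.49 in quadriceps and 1.03 in cord. Leaving out 1 cord library lowered the count of 68 to 38 (without KO animal 2), 40 (without WT animal 4) or 40 (without WT animal 5). For 49 of the 68 the tissue difference did not pass. Their median effect was 1.04 in quadriceps and 1.00 in cord, and the quadriceps effect was the larger in 33 of the 49. The 49 were selected by a cord call and by a difference that did not pass, so near-equal medians follow in part from that selection.

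Phagocyte genes stood among the strongest of these shared genes. Lyz2, the lysozyme of macrophages, had 178, 157 and 197 in KO and 28.6, 39.0 and 35.5 in WT quadriceps, and 41.0, 41.4 and 30.9 in KO and 11.0, 7.62 and 7.14 in WT cord. Its effects of 2.36 and 2.09 left a tissue difference of 0.27 with a 95% interval of -0.74 to 1.28. Adgre1, the macrophage marker F4/80, had effects of 2.29 in quadriceps and 1.78 in cord, with an interval of the difference of -0.35 to 1.37. The complement receptor C3ar1 had 2.16 and 1.73, with -0.39 to 1.25. Clec7a, a receptor for fungal glucans on phagocytes, had 1.98 and 2.19, with -1.35 to 0.93. Each of the 4 intervals holds differences beyond 1 log2 unit, so equal effects were not shown.

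Hmga1b stood apart from the phagocyte genes by its pattern. This chromatin protein gene had a signal of 25.4, 23.9 and 27.2 in KO and no read in the 3 WT quadriceps libraries, and 18.1, 18.8 and 18.2 in KO against at most 0.204 in WT cord. It lies at chr11:120762794-120764419 (GRCm38), 1495 kb from the start of Gaa, and is a near copy of Hmga1, so reads can be shared. Its fitted tissue difference depends on the pseudocount and had an adjusted p of 0.175, and of 0.0170 with the animal as a block. Gm10073 was likewise near 0 in the WT libraries, with 24.4, 25.8 and 29.4 in KO and 0.252, 0.0288 and 0.163 in WT quadriceps, and 7.18, 8.63 and 6.92 in KO and at most 0.0804 in WT cord. This gene, and list members given beyond those that the naming rule took, were chosen after their values were seen. The tissue difference of Gm10073 was 1.48 on B6;129 (adjusted p = 0.000259) and -0.14 on the mixed background (adjusted p = 0.736).

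For 19 of the 68 genes the tissue difference passed, with the larger effect in quadriceps in 18. Leaving out 1 cord library lowered the 19 to 10 in 4 cases (without KO animal 2 or 3, or WT animal 4 or 5) and to 11 without WT animal 6. Lgals3, a galectin that binds damaged lysosomes and marks activated phagocytes, had 108, 124 and 165 in KO and 1.84, 3.14 and 3.14 in WT quadriceps, against 8.28, 8.04 and 7.17 in KO and 0.886, 1.15 and 1.42 in WT cord. KO and WT were apart in quadriceps, as for 54.1% of all genes, and in cord, as for 24%. The tissue difference of Lgals3 was 3.03 ± 0.42 (adjusted p = 9.92e-06). Hexa, the alpha subunit of beta-hexosaminidase, had 155, 174 and 162 in KO and 51.1, 52.9 and 55.3 in WT quadriceps, against 46.9, 49.1 and 45.7 in KO and 28.0, 27.6 and 31.8 in WT cord, a difference of 0.92 ± 0.14. The myeloid membrane proteins Tmem176b and Tmem176a differed by 1.44 and 0.99. The lysosomal proteases Ctsl and Ctss differed by 0.76 and 2.09.

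Ctsd was the 1 gene of the 19 with the larger effect in cord. This aspartic protease of lysosomes had 1160, 1171 and 1134 in KO and 894, 856 and 1037 in WT quadriceps, and 497, 513 and 534 in KO and 245, 255 and 261 in WT cord. Its effect was 0.32 in quadriceps and 1.02 in cord, a tissue difference of -0.70 ± 0.15 (adjusted p = 0.00134). Gene ENSMUSG00000110040 overlaps Ctsd on chromosome 7. It had 0.0218, 0.0218 and 0.773 in KO and 9.26, 0.951 and 5.69 in WT quadriceps against 5.95, 3.86 and 4.58 in KO and 1.24, 1.84 and 1.03 in WT cord. Both genes lie on the minus strand, so strand would not tell apart reads from the stretch they share. On the mixed background the tissue difference of Ctsd was -0.26 (adjusted p = 0.193).

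Itgb5 and Sulf1 were called in both tissues in opposite directions. Itgb5, an integrin subunit that binds vitronectin, had 107, 103 and 96.9 in KO and 158, 129.8 and 124 in WT quadriceps. In cord it had 54.6, 55.1 and 51.5 in KO and 42.5, 43.0 and 40.4 in WT, a tissue difference of -0.77 ± 0.12 (adjusted p = 3.26e-05). Sulf1, which removes sulfate from heparan sulfate, had 10.0, 13.2 and 12.8 in KO and 13.7, 17.4 and 16.4 in WT quadriceps. In cord it had 13.1, 14.8 and 12.3 in KO and 7.08, 9.63 and 7.71 in WT, a difference of -1.08 ± 0.21. Both genes were apart in both tissues in opposite directions with a called tissue difference, as were 3.37% of all genes. The count of opposite calls ranged from 0 to 2 when a library was left out. With a fit for each tissue that count was 6: Aqp4, Oat, Bmpr1b, Serpine2, Itgb5 and ENSMUSG00000110040.

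The cord effect was called and larger than the quadriceps effect, with a tissue difference that passed, in 12 genes. Besides Ctsd and Sulf1, the rule for naming genes took Met, the receptor of hepatocyte growth factor (6.92, 6.95 and 6.71 in KO against 3.12, 4.48 and 3.85 in WT cord, with an effect of -0.22 in quadriceps and 0.78 in cord). It also took Osmr, the oncostatin M receptor, with 6.82, 7.57 and 7.35 in KO and 4.84, 3.13 and 3.58 in WT cord and a tissue difference of -0.77. Aldh1l2, a mitochondrial folate enzyme, differed by -0.63, the dehydrogenase Dhrs1 by -0.41 and the secreted CCN family protein Wisp2 by -1.36 (adjusted p = 0.0125, and 0.0624 with a pseudocount of 2). Rnaset2b, a lysosomal ribonuclease with the near-identical copy Rnaset2a, differed by -0.54. The quadriceps effects of these 6 genes lay between -0.22 and 0.086, and none was called.

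The lysosome list, made of enzymes and membrane proteins of the organelle in which Gaa works, rose in quadriceps for most of its members. Of 38 measured members, 25 rose and 2 fell in quadriceps, 6 rose in cord, and 6 had a positive tissue difference and none a negative one, with a median difference of 0.157 against -0.0116 over all genes. Over all genes 45.3% were called in quadriceps, 0.645% in cord, and 12.2% were positive and 13.1% negative in the tissue difference, so that the 6 positive members are near the background, as is a list of this or smaller size with no cord call. The 6 were Hexa, Galns, Cd63, Gm2a, Lamp1 and Psap. Lamp1, a main glycoprotein of the lysosomal membrane, had 882, 915 and 870 in KO and 590.1, 548 and 566 in WT quadriceps, against 361, 382 and 392 in KO and 318, 342 and 333 in WT cord, a difference of 0.45 ± 0.073. Cd63, another membrane protein, had 313, 371 and 365 in KO and 134, 122 and 115 in WT quadriceps, and 94.7, 100.4 and 94.0 in KO and 49.4, 54.4 and 55.3 in WT cord, a difference of 0.64 ± 0.14. The sulfatase Galns differed by 1.04 ± 0.22. Man2b1, the lysosomal alpha-mannosidase, rose by nearly the same amount in both tissues, 0.60 in quadriceps and 0.66 in cord. Summed over the 38, the signal was 1.39 times as high in KO as in WT quadriceps and 1.11 times in cord.

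The cathepsin list, which includes the inhibitors Cstb and Cst3, split by member. Of 13, 7 were positive and 2 negative in the tissue difference. Ctsk, a collagen-cutting protease, had 18.5, 18.5 and 21.8 in KO and 3.42, 6.25 and 5.93 in WT quadriceps, against 4.29, 4.98 and 3.79 in KO and 4.81, 4.60 and 4.71 in WT cord, a difference of 1.97 ± 0.25. Cstb, a cytosolic cathepsin inhibitor, differed by 1.22 ± 0.12. Ctss, the cathepsin of antigen-presenting cells, had 37.0, 24.4 and 48.5 in KO and 3.13, 4.29 and 3.14 in WT quadriceps, and 104, 94.7 and 114 in KO and 49.5, 50.5 and 47.4 in WT cord. Its log2 difference of 2.09 was positive, whereas the difference in units of signal was -22.0. Ctsz had effects of 0.92 and 0.98 with no called difference, and Ctso and Ctsd were the 2 negative members, 1 of which was lost in 9 of the 12 fits without a library. The summed signal of the 13 was 1.38 times as high in KO as in WT quadriceps and 1.41 times in cord.

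Most subunits of the proton pump that acidifies lysosomes rose in muscle. Of 17 vacuolar ATPase subunits, 12 rose and 1 fell in quadriceps, none was called in cord, and 8 had a positive and 1 a negative tissue difference. Atp6v1a, the catalytic subunit, had 45.9, 57.9 and 54.3 in KO and 25.5, 27.2 and 26.1 in WT quadriceps, against 261, 252 and 275 in KO and 268, 287 and 269 in WT cord, a difference of 1.05 ± 0.12. The accessory subunits Atp6ap2 and Atp6ap1 differed by 1.08 and 0.30, and the membrane ring subunit Atp6v0c by 0.51. Of 25 autophagy genes, 4 were positive and 3 negative, near the 12.2% and 13.1% of all genes. The cargo receptor Sqstm1 had 1046, 1095 and 1104 in KO and 725, 589.9 and 636 in WT quadriceps, and 265, 271 and 276 in KO and 279, 281 and 271 in WT cord, a difference of 0.77 ± 0.15. Gabarap, a protein of the autophagosome membrane, differed by 0.51, whereas the receptor Optn differed by -0.85 and Rragd, a GTPase that signals lysosomal nutrients, by -0.60. Tfeb, the factor that drives lysosomal genes, had effects of -0.14 in quadriceps and 0.03 in cord, neither called.

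A pair of lysosomal promoters with opposite tissue differences is shown, those of Lamp1 (positive, chr8:13158911-13159210, plus strand) and Ctsd (negative, chr7:142387778-142388077, minus strand), from RefSeq on GRCm38.p6. Capitals mark CACGTG, the E-box at the centre of the element bound by Tfeb and its relatives, searched on both strands.
Lamp1: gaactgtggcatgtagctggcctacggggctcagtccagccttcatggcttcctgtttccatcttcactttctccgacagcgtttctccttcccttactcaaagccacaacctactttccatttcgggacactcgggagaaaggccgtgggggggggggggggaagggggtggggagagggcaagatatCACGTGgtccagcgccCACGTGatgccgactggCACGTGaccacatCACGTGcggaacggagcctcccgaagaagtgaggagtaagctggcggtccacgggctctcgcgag
Ctsd: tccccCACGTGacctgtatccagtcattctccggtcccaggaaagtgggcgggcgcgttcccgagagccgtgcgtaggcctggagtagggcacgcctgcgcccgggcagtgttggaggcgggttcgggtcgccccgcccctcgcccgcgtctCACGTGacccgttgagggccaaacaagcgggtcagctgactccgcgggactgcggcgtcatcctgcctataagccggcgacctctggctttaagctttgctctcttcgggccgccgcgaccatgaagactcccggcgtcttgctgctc
The word occurred 4 times in the Lamp1 window and 2 times in that of Ctsd. It was present in 7.15% of all 32851 promoters and in 9.97% of the 12563 of measured genes. It was present in 7 of 32 promoters of the lysosomal list (21.9%), in 4 of 11 of the cathepsins (36.4%) and in 4 of 16 of the vacuolar ATPase (25.0%). The Lgals3, Hexa and Cd63 windows did not hold these letters.

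Among genes for cytosolic glycogen breakdown more fell than rose in muscle. Of 13, 7 fell and 1 rose in quadriceps, none was called in cord, and 7 had a negative tissue difference, with a median of -0.579 (5 and -0.341 under quantile normalization within each tissue). Phkb, the beta subunit of phosphorylase kinase, had 398, 379 and 365 in KO and 811, 787 and 730.5 in WT quadriceps, against 48.9, 41.6 and 41.1 in KO and 41.7, 46.2 and 41.9 in WT cord, a difference of -1.04 ± 0.11 (adjusted p = 2.32e-07). The kinase subunits Phkg1 and Phka1 differed by -0.76 and -0.59, and Pygm, the muscle phosphorylase, by -0.53 (adjusted p = 0.0456). The member that rose in muscle was Stbd1, which tethers glycogen to membranes, with an effect of 0.75 and a tissue difference of 0.29 that did not pass. The summed signal of the list was 0.603 times as high in KO as in WT quadriceps and 0.923 times in cord.

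Genes of glycogen synthesis and fuel use went both ways. Of 14 genes of glycogen synthesis and its control, 4 were negative and 1 positive. Gbe1, the branching enzyme, had 199.7, 204 and 142 in KO and 102, 112 and 118 in WT quadriceps and differed by 0.68 ± 0.18. Prkaa2, a catalytic subunit of AMP-activated kinase, differed by -0.81, the glycogen phosphatase Epm2a by -0.59 and the kinase Gsk3b by -0.42. Of 24 glycolysis and glucose uptake genes, 3 were positive and 5 negative, where 12.2% and 13.1% of all genes were. Under quantile normalization within each tissue the balance turned to 5 positive and 2 negative, with a median difference of 0.29 in place of 0.00698. Hk1, the hexokinase of brain and of embryonic muscle, had 27.3, 35.8 and 37.6 in KO and 8.61, 9.13 and 9.04 in WT quadriceps, against 164, 154 and 167 in KO and 164, 156 and 156 in WT cord, a difference of 1.82 ± 0.17. The neuronal enolase Eno2 differed by 1.52 and the glucose transporter Slc2a3 by -2.20. Tpi1 differed by -0.49, a call lost under quantile normalization within each tissue (adjusted p = 0.638).

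Mitochondrial genes were lower in KO muscle on the signal as deposited. Of 30 respiratory chain genes 17 fell in quadriceps and none was called in cord, and 6 had a negative tissue difference, among them the complex II subunit Sdha (-0.42) and the complex I subunit Ndufs1 (-0.46). The mitochondrially encoded mt-Nd4 had 20370, 15810 and 14190 in KO and 26080, 26900 and 32670 in WT quadriceps and differed by -0.86. Under quantile normalization the list turned, with a median of 0.0467 in place of -0.166 and with 4 positive and 2 negative members, and mt-Nd4 was no longer called (adjusted p = 0.0967). Leaving out 1 library moved the 6 negative members between 3 (without KO quadriceps 3) and 13. Of 22 fatty acid oxidation genes 8 fell in quadriceps and 2 had a negative difference, the dehydrogenases Acadm (-0.69) and Etfdh (-0.54), a count of up to 6 when a library was left out. Over all genes 45.3% were called in quadriceps in either direction and 13.1% had a negative tissue difference, so the 2 are near the background. The signal summed over all genes was 1222000 to 1279000 in KO and 1476000 to 1543000 in WT quadriceps.

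**Figure D3:**
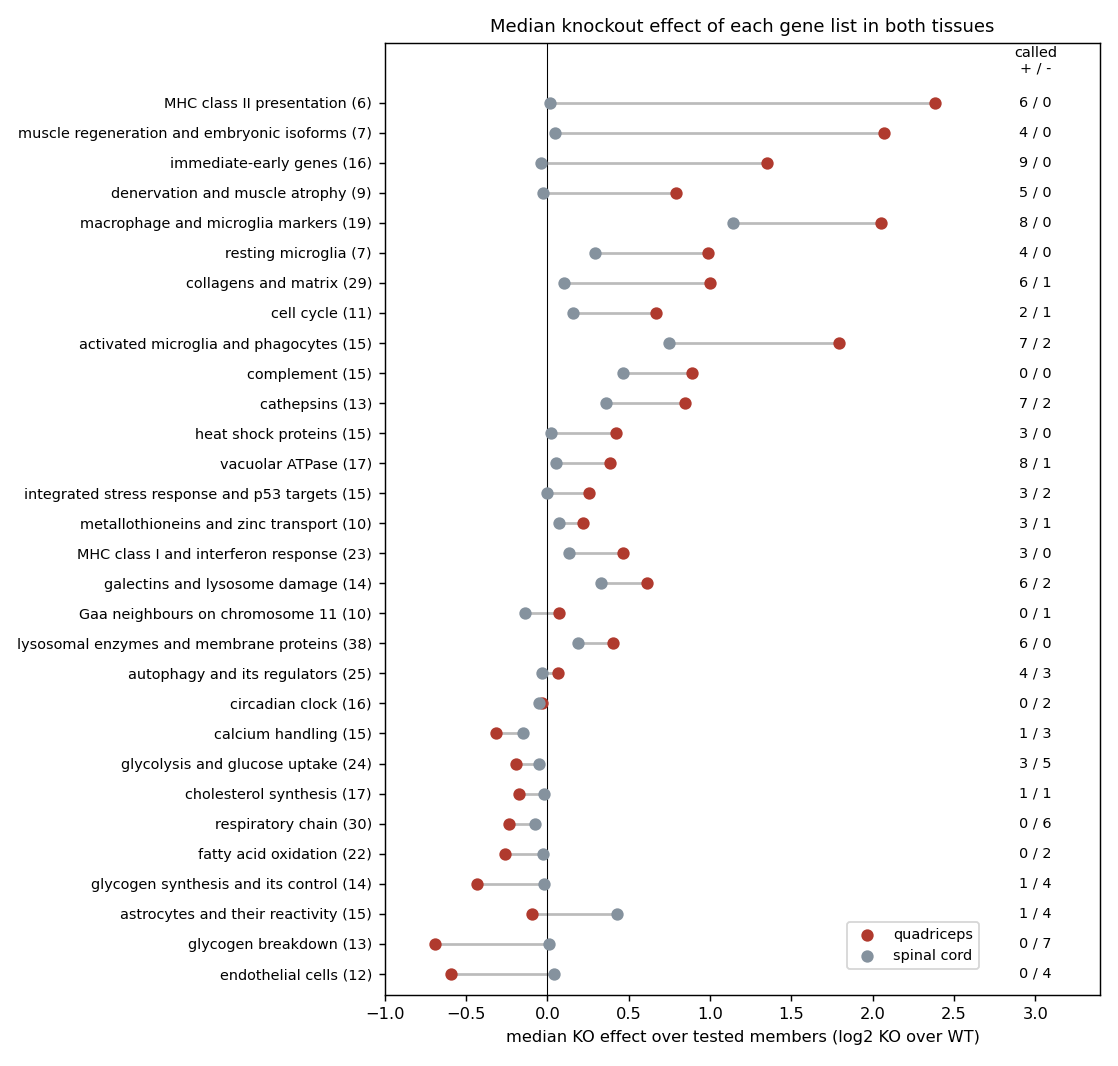
Median KO effect over the measured members of each gene list (log2 KO over WT, members in brackets) in quadriceps (red) and cord (grey), ordered by the median tissue difference, without the 6 lists of tissue cell markers. The columns at the right give the members with a called positive and negative tissue difference, from 6 and 0 for MHC class II presentation at the top to 0 and 4 for endothelial cells at the bottom.

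Macrophage and microglia markers rose in both tissues, and more on the log2 scale in muscle. Of 19 measured members, 18 rose in quadriceps and 11 in cord, and 8 had a positive tissue difference and none a negative one, with a median difference of 0.907. Leaving out 1 library moved the 8 between 6 and 9. Mpeg1, a pore-forming protein of phagocytes, had 28.8, 20.7 and 37.8 in KO and 2.27, 2.45 and 2.21 in WT quadriceps, against 63.8, 57.0 and 63.5 in KO and 17.4, 17.8 and 20.7 in WT cord. Its log2 difference was 1.66 ± 0.34, whereas the difference in units of signal was -16.0. Cx3cr1, the fractalkine receptor of microglia, had 3.25, 3.68 and 4.62 in KO and 0.540, 0.720 and 0.395 in WT quadriceps and 26.9, 31.8 and 31.5 in KO and 21.1, 21.4 and 17.9 in WT cord, a difference of 1.48 with the opposite sign (-6.63) in units of signal. The integrin Itgb2 differed by 1.30 and the endotoxin co-receptor Cd14 by 1.37. Together the 19 had a summed signal of 494 in KO and 111 in WT quadriceps, and 482 in KO and 209 in WT cord. Blood cell genes summed to 251 to 285 in KO and 223 to 309 in WT quadriceps and to 648 to 1450 in KO and 489 to 729 in WT cord, and their part in the cord results was not tested.

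A pair of narrower lists held genes known from resting and from activated microglia. Microglia are cells of the cord, so in quadriceps these genes give no microglia state, and which cells carried them there was not tested. Of 7 genes of resting microglia, 6 rose in quadriceps and 1 in cord, and 4 had a positive tissue difference, among them Tmem119 (1.15) and Selplg (1.24). Of 15 genes of activated microglia and phagocytes, 13 rose in quadriceps and 6 in cord, 7 were positive and 2, Ctsd and the lipase Lpl, negative, the last count being 1 or 2 over the fits without a library. The summed signal of the 15 was 1.21 times as high in KO as in WT quadriceps and 1.68 times in cord. Spp1, the matrix and cytokine protein osteopontin, had 13.2, 8.08 and 12.9 in KO and 1.62, 2.10 and 2.39 in WT quadriceps, and 83.9, 83.0 and 81.5 in KO and 74.2, 70.2 and 78.9 in WT cord, a difference of 2.05 ± 0.40. Trem2, the lipid receptor of activated microglia, had 4.34, 3.20 and 7.71 in KO and 0.756, 1.12 and 1.23 in WT quadriceps and 16.9, 17.5 and 17.7 in KO and 5.62, 4.86 and 5.09 in WT cord. Its tissue difference was 0.14 (adjusted p = 0.820). Gpnmb, a lysosomal glycoprotein of foamy macrophages, had effects of 2.71 in quadriceps and 2.88 in cord, the last not called.

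Complement genes gave no called tissue difference. Of 15, 11 rose in quadriceps and 5 in cord, the medians being 0.889 and 0.462. The summed signal of the 15 went the other way, at 1.68 times as high in KO as in WT quadriceps and 2.19 times in cord. C1qa, a chain of the first complement component, had 37.6, 34.4 and 48.0 in KO and 6.95, 9.30 and 8.95 in WT quadriceps, and 60.3, 61.0 and 65.2 in KO and 17.6, 21.9 and 20.2 in WT cord, with a difference of 0.56 ± 0.35 (adjusted p = 0.256). C4b, the fourth component, had 71.7, 45.9 and 40.3 in KO and 13.7, 21.4 and 7.74 in WT quadriceps, and 186, 206 and 239 in KO and 47.5, 62.0 and 63.7 in WT cord, with a difference of 0.053 ± 0.46. Under the other settings tried, up to 4 complement members were called.

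MHC class II presentation had the highest median tissue difference of the lists. All 6 measured members rose in quadriceps, none was called in cord, and all 6 had a positive tissue difference, with a median of 2.36. H2-Ab1, the class II beta chain, had 59.5, 63.0 and 97.8 in KO and 11.4, 9.65 and 10.8 in WT quadriceps, against 2.77, 2.92 and 1.20 in KO and 2.37, 1.84 and 1.56 in WT cord, a difference of 2.54 ± 0.58. H2-Aa differed by 2.75, H2-Eb1 by 2.52, the invariant chain Cd74 by 2.20 and the peptide loader H2-DMa by 1.66. The muscle libraries of the 2 genotypes were apart, as for 54.1% of all genes, and the cord libraries overlapped. The summed signal of the 6 was 5.81 times as high in KO as in WT quadriceps and 1.04 times in cord, at a cord level of 18.5 in KO and 17.8 in WT. Of 23 genes of MHC class I and the interferon response, 11 rose in quadriceps, none was called in cord and 3 were positive, near the 12.2% of all genes. The 3 were the antigen-processing genes Tapbp, Psmb10 and Tap2 (0.57 to 0.65), of which Tap2 was above the threshold in 4 of 12 fits without a library.

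**Figure D4:**
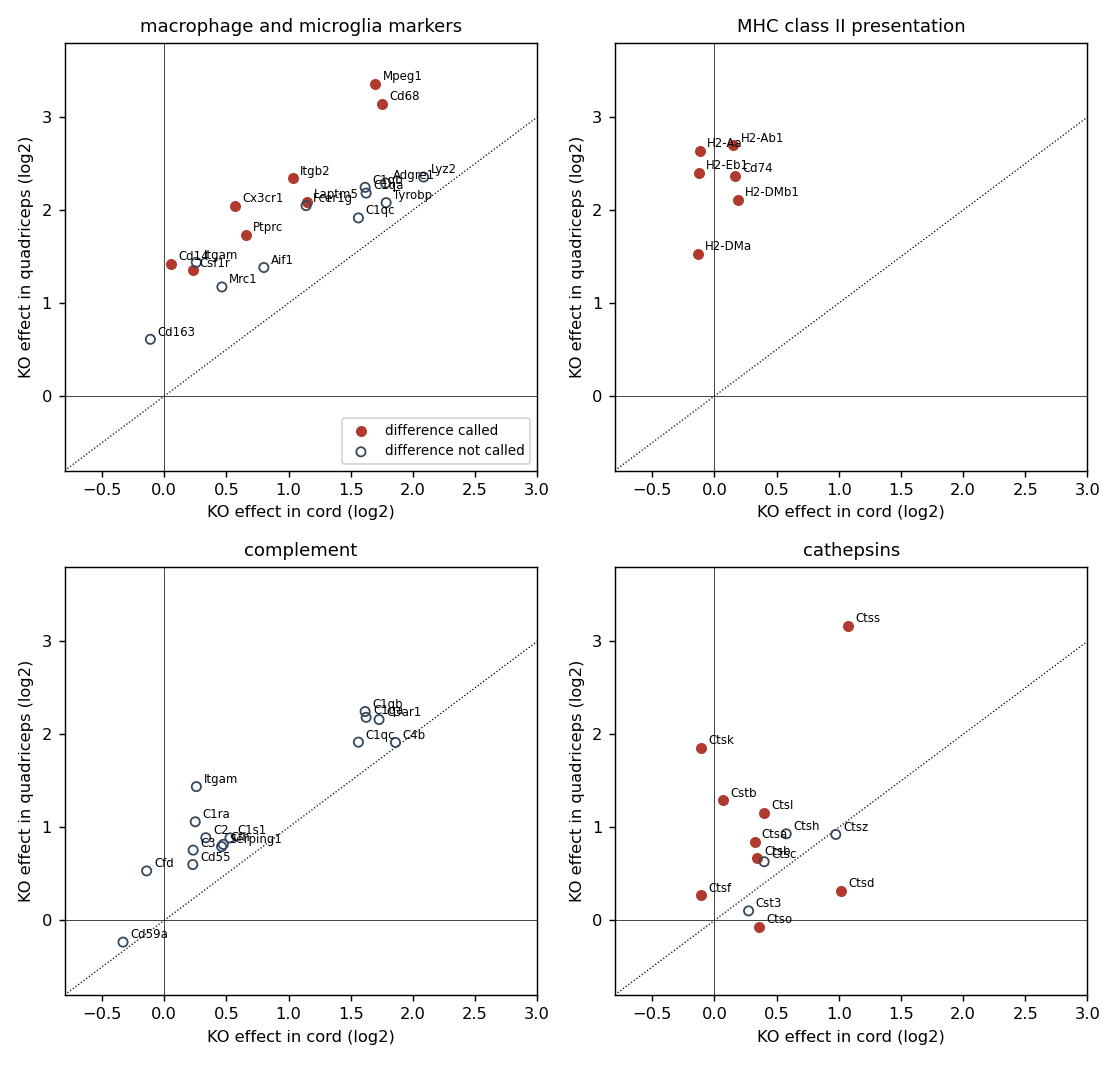
KO effect in cord (x axis) and quadriceps (y axis), both log2 KO over WT, of each measured member of 4 lists, with filled points where the tissue difference passed and the dotted line at equality. The 6 MHC class II genes lie near 0 in cord and above 1.5 in quadriceps, C4b lies at the line among open complement points, and Ctsd and Ctso lie under it.

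Many matrix genes rose in muscle. Of 29 collagen and matrix genes, 18 rose and 1 fell in quadriceps and none was called in cord. The tissue difference was positive in 6 (up to 14 under other settings) and negative in 1, Ltbp4. Timp1, an inhibitor of matrix metalloproteinases, had 17.3, 24.3 and 28.2 in KO and 0.828, 0.490 and 0.674 in WT quadriceps, against 0.963, 1.51 and 0.807 in KO and 0.102, 0.361 and 0.259 in WT cord, a difference of 3.24 ± 0.50. The growth factor Tgfb1 differed by 1.40, the proteoglycan Bgn by 1.24 and tenascin Tnc by 1.15. Col1a1 and Col3a1, the main fibrillar collagens, rose by 1.00 and 1.12 in quadriceps with differences of 0.46 and 0.66 that did not pass. Of 14 galectin and lysosome damage genes, 7 rose in quadriceps, and 6 were positive and 2 negative in the tissue difference. The negative ones were Lgals3bp (-0.60), which rose in cord, and the lipid droplet protein Plin2 (-0.63), a count of 2 that fell to 1 in 9 of the 12 fits without a library. Among the positive ones were the membrane-binding annexin Anxa2 (135, 189 and 205 in KO and 39.5, 44.6 and 36.0 in WT quadriceps, against 27.6, 39.5 and 31.2 in KO and 27.4, 24.7 and 22.9 in WT cord, difference 1.74 ± 0.25) and its partner S100a10 (1.59).

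Genes of embryonic muscle and of denervated muscle gave some of the largest differences, on a cord signal that was often low. Of 7 measured genes of muscle regeneration, 6 rose in quadriceps and 4 were positive. Myl4, the embryonic and atrial myosin light chain, had 52.9, 55.0 and 93.2 in KO and 3.93, 5.62 and 5.04 in WT quadriceps against 0.699 to 1.08 in KO and 0.706 to 0.958 in WT cord, a difference of 3.57 ± 0.29. The cardiac and embryonic troponin Tnnt2 differed by 2.94. Ncam1, the neural adhesion molecule that denervated and regenerating fibres also carry, had 29.6, 38.0 and 31.8 in KO and 3.64, 5.10 and 5.09 in WT quadriceps, against 151, 149.7 and 170.4 in KO and 171, 165 and 159 in WT cord, a difference of 2.80 ± 0.19. The noncoding RNA H19 differed by 1.81, a call lost in 6 of 12 fits without a library and with the animal as a block (adjusted p = 0.0971). The other 10 of the 17 genes on the list did not pass the filter in both tissues.

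Of 9 denervation and atrophy genes, 5 were positive. Chrna1, the muscle acetylcholine receptor alpha subunit, had 60.0, 65.2 and 76.6 in KO and 15.3, 17.3 and 14.5 in WT quadriceps against 0.390 to 0.740 in KO and 0.474 to 0.864 in WT cord, a difference of 2.08 ± 0.27. The transcription factor Runx1 differed by 2.23 and the stress protein Gadd45a by 1.85. All 3 separated KO from WT in muscle without overlap, as 54.1% of all genes did. Fbxo32, the ubiquitin ligase atrogin-1, had effects of -0.055 in quadriceps and 0.12 in cord, neither called.

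Immediate-early genes, which cells induce within minutes of a stimulus, rose in muscle. Of 16, 12 rose in quadriceps, none was called in cord, and 9 were positive, with a median difference of 1.36. Arc had 8.92, 14.7 and 7.45 in KO and 0.900, 0.951 and 2.12 in WT quadriceps, against 16.8, 13.9 and 13.8 in KO and 14.7, 16.5 and 19.7 in WT cord, a difference of 2.77 ± 0.56. Ier3 differed by 1.73, and Jund by 1.02. Immediate-early genes varied on the mixed background: Egr3 differed by 2.69 there (adjusted p = 0.00135), Junb by 0.76 (adjusted p = 0.302) and Fosb by -1.73 (adjusted p = 0.00161). Of 15 genes of the integrated stress response and p53 targets, 3 were positive and 2 negative, where 12.2% and 13.1% of all genes were. Cdkn1a, the p53-induced cell cycle inhibitor p21, had 83.8, 108 and 117 in KO and 13.6, 25.1 and 20.9 in WT quadriceps and differed by 2.53 ± 0.55, whereas the p53 target Ccng1 differed by -0.86 and the stress factor Atf5 by -0.79. Of 11 cell cycle genes, the replication genes Pcna (0.66) and Rrm2 (1.31) were positive and the inhibitor Cdkn2c negative (adjusted p = 0.033, up to 0.086 without KO quadriceps 2).

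Stress and calcium genes of the fibre were mixed. Of 15 heat shock genes 3 were positive, where 12.2% of all genes were: the chaperone Hsp90ab1 by 0.45, and Hspb7 by 2.08 and Cryab by 0.94, both chaperones of the sarcomere. The last 2 calls were unstable: Hspb7 was lost in 5 and Cryab in 9 of the 12 fits without a library. Only 1 heat shock gene stayed called without KO quadriceps 2, WT quadriceps 4, WT cord 4 or WT cord 5. The adjusted p reached 0.0923 (Hspb7, without WT cord 4) and 0.119 (Cryab, without KO cord 1). Hspb7 had 0.0733 with the animal as a block, and Cryab 0.0624 with edgeR. Of 15 calcium handling genes 1 was positive and 3 negative, where 12.2% and 13.1% of all genes were. The counts turned to 2 positive and 1 negative under quantile normalization, with a median difference of 0.413 in place of 0.0219. Casq2, the cardiac and slow-fibre calsequestrin, had 54.4, 53.8 and 59.8 in KO and 18.8, 21.2 and 28.8 in WT quadriceps and differed by 1.21. The inositol trisphosphate receptor Itpr1 had 28.6, 27.4 and 24.8 in KO and 69.2, 78.8 and 58.1 in WT quadriceps and differed by -1.24, and the junctional protein Jph1 differed by -0.74 (adjusted p = 0.063 under quantile normalization). Stim1 differed by -0.29, with 0.09 under the block and 0.291 under quantile normalization.

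The 10 muscle fibre markers had no called tissue difference, and in cord they were the traces described above. Acta1, skeletal actin, had 37.1, 14.7 and 11.8 in KO and 48.8, 83.9 and 8.66 in WT cord, so the difference of 0.80 carried an SE of 1.38. Genes that muscle holds at a far higher signal than cord, such as those of calcium handling, are touched by the same traces, and their part in those results was not tested.

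Vessel genes were lower in KO muscle. Of 12 endothelial genes, 10 fell in quadriceps, none was called in cord, and 4 had a negative tissue difference, a count that moved between 2 (without KO quadriceps 3, WT quadriceps 6 or KO cord 2) and 7 when a library was left out. Flt1, a receptor of vascular endothelial growth factor, had 36.0, 36.4 and 33.0 in KO and 70.5, 66.6 and 83.2 in WT quadriceps, against 54.3, 57.6 and 59.9 in KO and 59.1, 49.2 and 49.8 in WT cord, a difference of -1.17 ± 0.27. The cadherin Cdh5 differed by -0.86 (adjusted p = 0.019, 0.0601 without KO cord 2), and the angiopoietin receptor Tek and its relative Tie1 by -0.80 and -0.60, with adjusted p up to 0.054 and 0.0763 without WT quadriceps 6. The summed signal of the 12 was 0.614 times as high in KO as in WT quadriceps and 1.04 times in cord.

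Some astrocyte genes had the higher effect in cord. Of 15 genes of astrocytes and their reactivity, 4 were negative in the tissue difference, Aqp4, Osmr, Aspg and Ggta1, and 1, the hyaluronan receptor Cd44, was positive (1.34). Gfap, the intermediate filament of astrocytes, had 1630, 1952 and 2051 in KO and 793, 1017 and 973 in WT cord, and at most 1.92 in a quadriceps library. The cord libraries of the 2 genotypes did not overlap, as for 24% of all genes. The cord effect of 1.02 was not called (adjusted p = 0.183) in the main fit. That fit takes 1 spread per gene over both tissues, so the SE of 0.294 also reflects the low quadriceps values. Vim, an intermediate filament of many cell types, rose by 1.14 in quadriceps and 1.21 in cord. Ggta1, a sugar transferase induced in reactive astrocytes, had 10.7, 8.12 and 8.66 in KO and 12.6, 11.5 and 16.1 in WT quadriceps, and 4.91, 6.67 and 5.40 in KO and 3.53, 2.94 and 3.25 in WT cord, a difference of -1.24 ± 0.28.

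Of 17 cholesterol synthesis genes, the squalene synthase Fdft1 (-0.79) and the regulator Srebf2 (0.66) passed. Of 16 clock genes, Hlf (-1.99 ± 0.29, with 3.73, 3.99 and 2.32 in KO and 17.4, 15.7 and 16.1 in WT quadriceps) and Bhlhe41 (-0.71, up to 0.0664 without WT quadriceps 5) passed, and core members such as Per1 and Nr1d1 did not. Over all genes 25.4% passed, so the cholesterol and clock counts lie below the background. Of 7 myelin genes 2 passed, Cnp (0.44) and Mag (0.88), on muscle signals of 15.6 to 17.8 and 0.545 to 1.72 in KO and of 12.5 to 13.2 and 0.209 to 0.662 in WT. Both calls were lost in several fits, Mag also under the block (adjusted p = 0.0541) and with a sign of -2.49 in units of signal. None of 5 blood cell genes, 3 fat cell genes and 2 neuron genes passed, and 1 of 9 Schwann cell genes did.

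The neighbourhood of Gaa was counted separately. Within 5 Mb on each side of the Gaa start 48 of 151 measured genes had a called tissue difference and 72 were called in quadriceps, where 25.4% and 45.3% of all genes were called. In cord 4 were called, with Gaa itself and Hmga1b among them, against 81 among the 13036 other genes. The counts of the window include Gaa. Of 10 listed close neighbours, Tbc1d16 passed (-0.51).

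On the second background, where KO and WT mice of mixed B6;129;DBA2/J origin were compared in the same way, the tissue difference passed for 4255 of the 13187 genes (32.3%). Of the 3346 genes called on B6;129, 3224 had the same sign there, 2319 were called with the same sign and 7 with the opposite sign. The background goes with a separate sample series and with the Ltbp4 allele, which cannot be told apart. Of the 20 largest differences described above 19 were called with the same sign on the mixed background, the exception being Egr1 (1.39, adjusted p = 0.0618). Mt3 reached 7.42 there and Dkk3 -4.01, whereas Lgals3 was lower at 1.47.

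The difference between the backgrounds was itself tested, and it passed for 39 genes, of which 12 had a called difference on B6;129. Fosb, an immediate-early factor outside the rule for naming genes, had the largest difference between backgrounds of the 12 (3.63, adjusted p = 0.00226). Its tissue difference was 1.90 on B6;129 and -1.73 on the mixed background, on a low signal of 0.720 to 3.21 in the B6;129 libraries. Arhgef1, a regulator of the GTPase RhoA, had 0.37 and -0.83, with the smallest adjusted p of the 12 (0.000588). Serpine2, a protease inhibitor, had -1.18 and -0.24. None of the 128 genes named by the rule with a called difference passed this test.

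**Figure D5:**
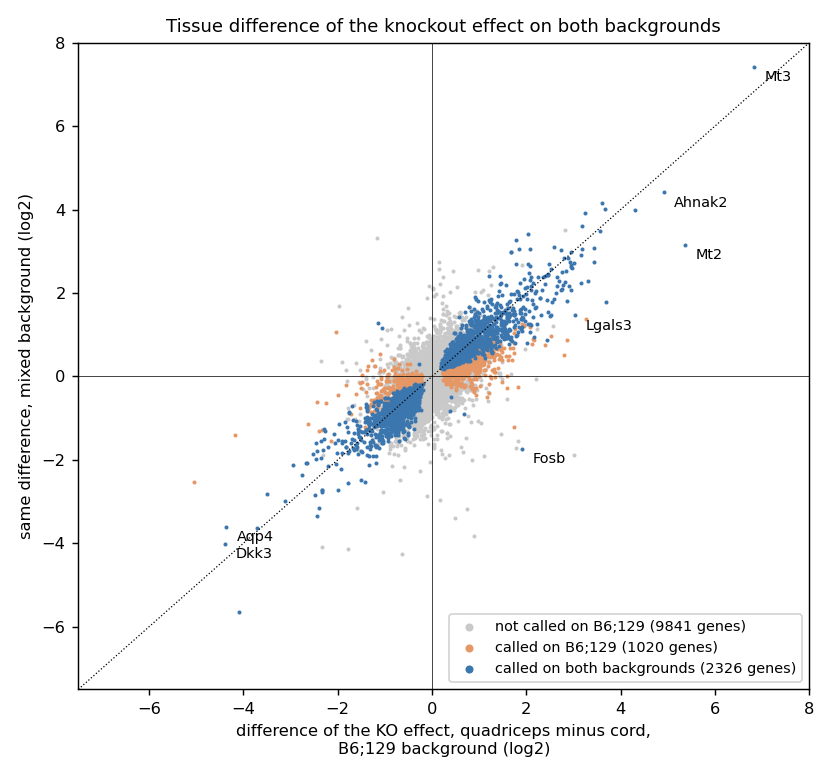
Tissue difference of the KO effect (quadriceps minus cord, log2) on B6;129 (x axis) and on the mixed background (y axis) for 13187 genes, with the dotted line at equality. Blue genes were called on both backgrounds and orange ones on B6;129, most points follow the line, and Fosb lies in the opposite quadrant.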

How the data were processed

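PolyA RNA of snap-frozen quadriceps and spinal cord was sequenced on a HiSeq2500 with single reads of 61 bases, per the labels' protocols, and cutadapt, RSEM, edgeR, limma and GRCm38 are named in the submitters' processing notes, without versions. The authors deposited 1 table of signal values, each a count of reads with 0.5 added, over the scaled size of its library. Whole reads were recovered for all values within a tolerance of 0.001. From there log2(signal + 0.5) was fitted with limma 3.58.1 (trend, R 4.3.3) over all 30 libraries in 10 groups, with Benjamini-Hochberg adjustment over the genes that reached a signal of 1 in 3 or more libraries of quadriceps and also of cord, and a call is an adjusted p under 0.05. The animal number marks tissues of the same mouse: own-animal deviations correlated at 0.205 to 0.354, and each was highest with its own animal in 6 of 6. A fold change on this scale understates low genes. Nothing says how littermates were assigned. The p-values of the main fit measure the spread within groups over all 30 libraries, those of the mixed background and of treated mice included. That fit had no block for the animal, so it took quadriceps and cord of the same mouse as independent.

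The members, the 36 gene lists and the tests were chosen with earlier results of these data known, and lists are therefore described without tests of their own. Genes were named by a rule. It took Gaa and the 10 largest positive and 10 largest negative called differences, with animals apart and a signal of at least 5. It also took up to 8 genes called in opposite directions, 6 shared genes with and 6 without a called difference, 8 with the larger effect in cord, and up to 4 of each list. Genes outside it were chosen after their values were seen. Alternatives were pseudocount, filters, quantile normalization, a median shift, fewer libraries, separate fits, edgeR 4.0.16 on the recovered reads, no trend, a block for the animal, leaving out each library, and the linear scale. Promoters came from RefSeq (GRCm38.p6). Of the gene IDs, 99.8% matched the annotation. Results for some genes are not reported here.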

Additional observations from a re-analysis of the deposited data

Results flagged for a closer look

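The KO effect differed between quadriceps and cord for 3346 genes by the test of the difference itself. Among the named genes, 11 moved one way in all 3 KO quadriceps libraries and the other way in all 3 KO cord libraries, each outside the range of the WT libraries. Over all genes 3.37% had such a pattern with a called tissue difference, and most named genes were chosen for a called difference. The cord effect was called for Itgb5 and Sulf1 and not for the other 9. Those with a positive tissue difference were Lingo1 (3.17), the vacuolar ATPase subunit Atp6v0c (0.513), the regulator Srebf2 (0.662) and the myelin enzyme Cnp (0.442). Those with a negative one were Aqp4 (-4.36), the transferase Ggta1 (-1.24), Sulf1 (-1.08), the receptor Tek (-0.803), Itgb5 (-0.769), the clock factor Bhlhe41 (-0.713) and the GTPase Rragd (-0.596).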

How the results depend on the processing

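The count of 3346 called differences was within 1.5 times under every setting tried, with 3487 at a pseudocount of 2, 3009 of 10137 genes at a signal of at least 4, 3571 without a filter, 3489 after quantile normalization, 3508 with edgeR and 4437 with the 12 libraries alone. Leaving out a library gave 2746 (without KO quadriceps 3) to 3289 calls, of which 1316 to 1662 were positive and 1430 to 1640 negative, and 5101 to 5874 calls in quadriceps. With the animal as a replicate block 3150 genes were called, 2862 of them shared. The block ended the calls of Mag, Hspb7, H19 and Stim1, added Hmga1b, and changed no other named call.

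Counts that rest on cord calls moved most, and the cause was not tested. With the 12 libraries alone 135 genes were called in cord, 10 in opposite and 107 in the same direction, 46 of these with a called difference, 121 had the larger effect in cord, and Gaa (-0.371) passed at 0.0151. With a fit for each tissue the cord calls were 168, with 6 opposite, 113 in the same direction and 36 with a called difference. Without the trend 1 gene was opposite. Leaving out a library gave 44 to 86 cord calls (44 without WT cord 4, 46 without KO cord 2, 48 without WT cord 5, 55 without KO cord 3), 0 to 2 opposite, 38 to 68 in the same direction, 10 to 20 with a called difference, 36 to 59 with the larger cord effect (36 without KO quadriceps 2), and a Gaa difference of -0.418 to -0.285. On the linear scale 3296 of the 3346 genes kept their sign, and among the named genes Kcnab1 (8.46), Ctss (-22.0), Mag (-2.49), Mpeg1 (-16.0) and Cx3cr1 (-6.63) reversed. With 3 animals a genotype, the median SE of a tissue difference was 0.181.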
